A study of Mus musculus with 4 samples.

Results

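The collagen genes of IMS32 cells were taken as all genes of the array whose symbol is Col followed by a type number, the letter a and a chain number. This rule found 44 genes of 31093 gene names, measured by 66 probes of 39429, and all 44 symbols are in the RefSeq gene table of GRCm38.p6. IMS32 is a spontaneously immortalized line of Schwann cells from the adult mouse. In the 4 groups compared here, the cells stayed for 1 h in DMEM with serum and either 5 or 15 mM glucose, with 1 mM pyruvate or without it. The groups at the lower glucose are termed [Glc 5 mM/Pyr (+)] where pyruvate was present and [Glc 5 mM/Pyr (−)] where it was absent. Those at the higher glucose are [Glc 15 mM/Pyr (+)] and, where it was absent, [Glc 15 mM/Pyr (−)], and values for the 4 groups are given in this order. Each group has 1 array, hybridized with the Cy3-labelled RNA of that culture. The line is a model of cultured Schwann cells without axons, so no condition here includes the contact with nerve fibres under which these cells form myelin.

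Collagens are the main structural proteins of the extracellular matrix. Their chains wind around each other into a stiff helix, and the type decides what the helix builds: fibrils, sheets, beaded filaments or links between these. In peripheral nerve, Schwann cells lay down a basement membrane that holds type IV collagen, and they also make fibrillar, type V, type VI and type XVIII chains. Contact with this matrix is known to be needed for Schwann cells to ensheathe and myelinate axons.

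The arrays were comparable in brightness, and the cells carried the markers of their lineage. The 75th percentile of intensity was 1788, 1740, 1597 and 1632, and 30344, 29513, 28470 and 28919 probes were well above background, a flag of the scanner software for a signal clearly brighter than its surroundings. No spot was saturated. All 15 of 15 Schwann cell markers on a fixed list, with Sox10 and S100b among them, were well above background on all 4 arrays. Of 10 fibroblast markers, 8 were too, while Dpt was at background and Lum was above it on some arrays, and 5 of 5 macrophage and 2 of 5 endothelial markers were above it on all 4. Of the other endothelial markers, Emcn and Tek were above background on some arrays and Cdh5 on none. The summed level of the fibroblast markers lay between 21.7 and 23.4 times the 75th percentile, that of the Schwann cell markers between 49.6 and 56.5, that of the macrophage markers between 1.46 and 1.94 and that of the endothelial markers between 2.67 and 3.21. The part of RNA from other cell types in the collagen signals was not tested. In such bulk samples, fewer cells and less RNA per cell cannot be told apart.

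Most collagen chains were expressed. A gene was called expressed when at least 1 of its probes was well above background on all 4 arrays, which held for 35 of 44 collagen genes (79.5%), beside 21716 of 31093 names on the array (69.8%). The expressed chains were 10 of 11 fibrillar chains, 8 of 9 fibril-associated chains, 5 of 6 type IV chains, 5 of 7 chains of types VI and XXVIII, 2 of 3 chains of types VIII and X, 3 of 4 transmembrane chains, 1 of 2 multiplexins and the type VII chain. Col15a1, the other multiplexin, was above background on some arrays. The 8 genes at background on every array were Col24a1, Col9a3, Col4a3, Col6a5, Col6a6, Col10a1, Col13a1 and Col26a1. When the weaker flag of the same software was used, for a signal that differs from its background by its own test, 41 genes were called. The share of all names under this weaker flag is not given here, so that count is not compared with other genes.

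**Figure D1:**
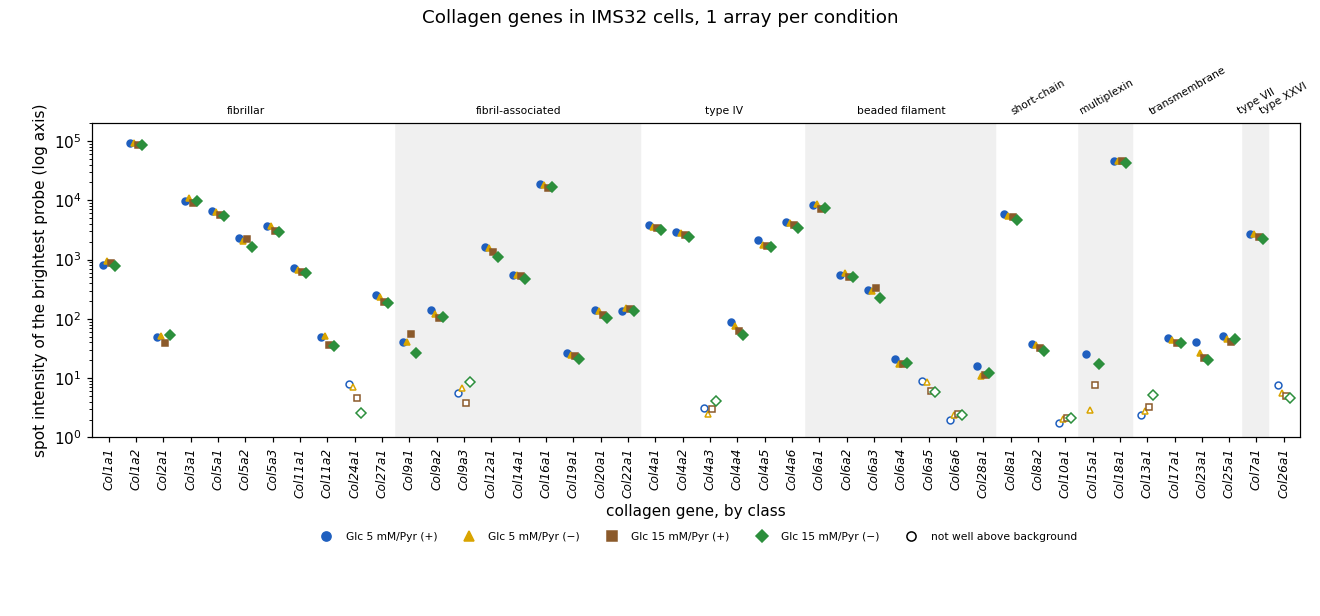
Spot intensity (log axis) of the brightest probe of each of the 44 collagen genes, by class, with 1 point per condition and open points where the probe was not well above background. The 4 points of a gene lie close together for most chains, and intensities of different genes come from different probes and are not compared.

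The promoters of a few chains that the values below turn on are shown so that the start of each gene can be read beside its level. They come from RefSeq on GRCm38.p6, as 250 bases before to 50 bases after the transcript start, 5′ to 3′, and 35 of 44 collagen genes had an entry. Capitals mark 3 short motifs searched on both strands, which do not overlap each other here. They are the TATA motif TATAAA, the box CCAAT, which reads ATTGG on the other strand, and the GC motif GGGCGG, which reads CCGCCC there. Col1a2, chosen because its probe gave the steadiest of the type I signals, lies at chr6:4505368-4505667 on the + strand with 2 copies of CCAAT and 2 of GGGCGG. Col3a1, at chr1:45311288-45311587 on the + strand, is shown as a chain without either of these motifs and with 1 TATAAA. The stretch at chr8:11312755-11312854, written along the + strand, lies where Col4a1 and Col4a2 start on opposite strands.
Col1a2: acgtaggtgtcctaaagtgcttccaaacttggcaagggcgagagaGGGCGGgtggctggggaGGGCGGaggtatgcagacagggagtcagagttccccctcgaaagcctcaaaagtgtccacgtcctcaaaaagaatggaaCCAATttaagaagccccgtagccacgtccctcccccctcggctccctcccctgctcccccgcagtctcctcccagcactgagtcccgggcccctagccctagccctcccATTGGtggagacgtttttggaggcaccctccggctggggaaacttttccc
Col3a1: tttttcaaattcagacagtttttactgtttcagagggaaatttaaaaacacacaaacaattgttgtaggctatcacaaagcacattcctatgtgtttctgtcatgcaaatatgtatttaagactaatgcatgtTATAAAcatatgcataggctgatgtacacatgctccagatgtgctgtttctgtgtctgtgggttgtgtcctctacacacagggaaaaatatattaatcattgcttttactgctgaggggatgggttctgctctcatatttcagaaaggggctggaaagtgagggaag
Col4a1 and Col4a2: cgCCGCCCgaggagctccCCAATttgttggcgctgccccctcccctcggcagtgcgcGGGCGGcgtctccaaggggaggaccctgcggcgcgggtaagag

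Col4a1 and Col4a2 are read from opposite strands, and the transcript starts used here are 21 bases apart, so their 300-base windows share 78 bases. By these starts the transcripts overlap over their first bases. Col4a6 and Col4a5 form a second pair on opposite strands, on chromosome X, and are read away from each other. Their starts are 1343 bases apart and their windows share no bases. Over the 35 collagen promoters, GGGCGG was found in 22 (62.9%), beside 35.9% of 27025 promoters of all genes, and the median GC content was 60 and 52.7% in the same order. CCAAT was found in 12 of 35 (34.3%), beside 37.9%, and TATAAA in 5 of 35 (14.3%), beside 14.2%. These matches describe the letters only.

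Fibrillar chains build the fibrils that give tissue its tensile strength. Col1a2, the second chain of type I collagen, gave intensities of 91960, 90986, 87169 and 85784, and relative to the 75th percentile its level ranged over 0.09 on the log2 scale. Its probe lies at chr6:4490619-4490678 of mm9, the build of the array files, on the + strand. Col1a1, the other type I chain, gave 803, 928, 872 and 786 and ranged over 0.28. The [Glc 5 mM/Pyr (+)] group was the lowest for both type I chains on the scaled level. This order depended on the scaling. When arrays were scaled to added control RNAs instead, Col1a2 and Col1a1 lay at -0.27 and -0.07 for 15 minus 5 mM glucose with pyruvate. Col3a1, whose type III fibrils run together with type I, gave 9783, 11110, 9136 and 9810, with the highest level in the [Glc 5 mM/Pyr (−)] group. Type V chains start and thin the fibrils and are made by Schwann cells in nerve. Col5a1 gave 6591, 6355, 5550 and 5372, and Col5a3 gave 3666, 3641, 3088 and 2915. Both levels were lowest in the [Glc 15 mM/Pyr (−)] group, within ranges of 0.16 and 0.23. Col5a2 gave 2357, 2064, 2259 and 1631 and was set apart in the [Glc 15 mM/Pyr (−)] group, with a range of 0.50. The remaining expressed fibrillar chains were Col11a1 and Col11a2 of type XI, Col27a1 and Col2a1, the type II chain of cartilage, with ranges of 0.13 to 0.43. Col24a1 was at background.

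Type IV chains form the sheet of the basement membrane. The probe of Col4a1 was printed 10 times on each array, which makes it the member with a direct measure of error within an array. Its intensity was 3874 ± 216, 3566 ± 181, 3383 ± 158 and 3205 ± 173 (SD, n = 10 spots), and its log2 level 1.11 ± 0.08, 1.03 ± 0.07, 1.08 ± 0.07 and 0.97 ± 0.08. The differences for pyruvate, -0.08 at 5 mM and -0.11 at 15 mM glucose, were thus about as large as the SD of single spots. The error of a mean of 10 spots is smaller than this SD, and both leave out the variation between cultures. Col4a2, its partner in the helix, gave 2952, 2837, 2557 and 2362. Of the X-linked pair, Col4a5 gave 2098, 1774, 1699 and 1651. Col4a6 was measured by a bright probe at 4278, 4158, 3866 and 3415 and a dimmer probe at 339, 337, 305 and 334. As the mean of its probes, Col4a6 had the smallest range of all expressed collagen genes, 0.06, although the bright probe was lowest in the [Glc 15 mM/Pyr (−)] group and the dimmer one was not. Col4a4, a chain best known from the kidney, had 2 dim probes above background and 1 at background. The brighter of these gave 87.6, 76.2, 61.2 and 53.4, highest in the [Glc 5 mM/Pyr (+)] group and lowest in the [Glc 15 mM/Pyr (−)] group. Its usual partner, Col4a3, was at background on all arrays.

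Type VI chains form beaded filaments close to the basement membrane. Col6a1 gave 8241, 8751, 7247 and 7498, and Col6a2 gave 544, 583, 515 and 508, with ranges of 0.15 and 0.14. Col6a3, the largest of the classical type VI chains, gave 303, 289, 335 and 224. It was highest in the [Glc 15 mM/Pyr (+)] group and lowest in the [Glc 15 mM/Pyr (−)] group, a range of 0.61. Col6a4 was dim, and its probes disagreed: the probe from base 7012 of the transcript gave 15.5, 16.6, 14.7 and 26.1, while the probe from base 2259 gave 21.01, 17.3, 17.6 and 17.995. The rise in the [Glc 15 mM/Pyr (−)] group was thus seen by 1 of 2 probes. Col28a1 was expressed at 11.03 to 15.9, near the lowest intensity that was flagged on any array, 8.60 to 10.5. Col6a5 and Col6a6 were at background.

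Type VIII chains form short-chain networks around cells. Col8a1 gave 5877, 5491, 5325 and 4566, lowest in the [Glc 15 mM/Pyr (−)] group. Col8a2 was dim and its probes disagreed, with 38.0, 35.9, 31.7 and 28.4 from base 2234 and 23.1, 42.0, 40.4 and 24.2 from base 4197. Col10a1, the type X chain of growth plate cartilage, was at background. Col7a1, which makes the anchoring fibrils of skin, gave 2700, 2655, 2373 and 2266, a range of 0.14, and was named after its values were seen.

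Fibril-associated chains sit on the surface of fibrils. Col12a1 gave 1614, 1561, 1348 and 1105.4 with the probe from base 11558, and its probe from base 9543 was at background in all groups. The [Glc 15 mM/Pyr (−)] group was the lowest by this probe, with a range of 0.41. Col16a1, named after its values were seen, was above background with 3 of 3 probes, whose intensities in the [Glc 5 mM/Pyr (+)] group were 19111, 2927 and 85.4 for the same gene. In view of this spread between probes, no chain is ranked above another by its intensity. Col9a1, a type IX chain known from cartilage, gave 40.8, 41.2, 55.6 and 26.3 with the probe at chr1:24201545-24201604 (mm9, + strand, from base 964), highest and lowest in the groups at 15 mM glucose. Its other probe, from base 3435, was at background in all groups. The other expressed members were Col9a2, Col14a1, Col19a1, Col20a1 and Col22a1, with ranges of 0.12 to 0.30, and Col9a3 was at background.

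Multiplexins are collagens of basement membranes that carry glycosaminoglycan chains. Col18a1, the precursor of endostatin, gave 46424, 46178, 45469 and 42897 with one probe and 33127, 33852, 35945 and 30129 with the other. On the scaled log2 level its 4 values spanned 0.21. Col15a1 was measured by 3 probes on chromosome 4 of mm9. The probe at 47283786 to 47283845, from base 2280, gave 22.6, 10.7, 8.63 and 10.6 and was not well above background in the [Glc 15 mM/Pyr (+)] group. The probe at 47325261 to 47325320, from base 4542, gave 25.5, 2.85, 7.77 and 17.5, with only the first and last of these above background. Another probe starts 12 bases further on, shares 48 of its 60 bases with the second, and was at background on all arrays, at 2.52 to 3.13. Both detected probes were brightest in the [Glc 5 mM/Pyr (+)] group, and their order in the other groups differed. Of the transmembrane chains, which span the cell surface, Col17a1, Col23a1 and Col25a1 were expressed at 50.7 or less on every array and Col13a1 was not.

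**Figure D2:**
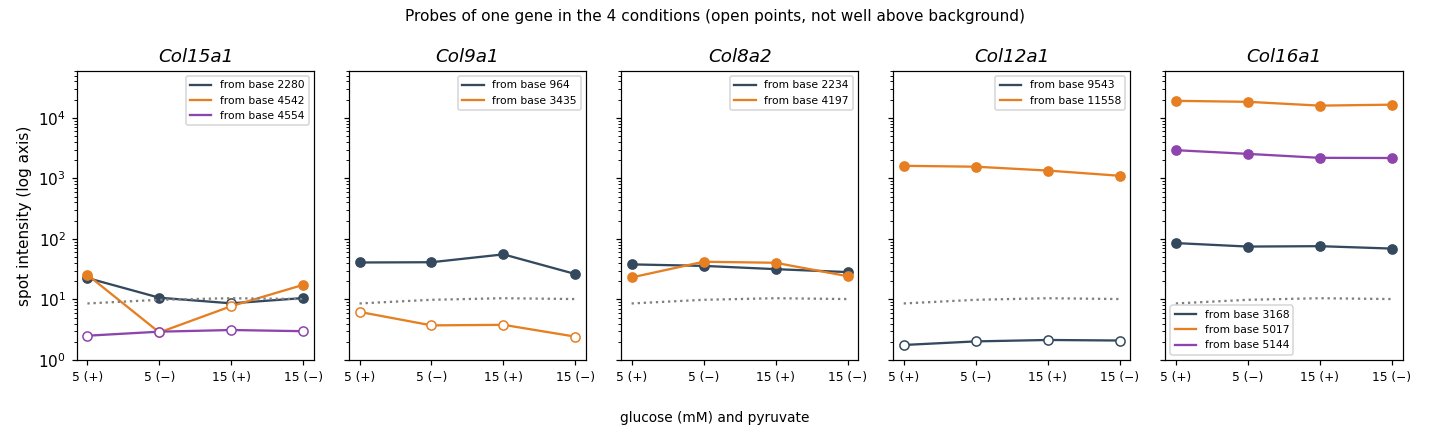
Spot intensity (log axis) of every probe of Col15a1, Col9a1, Col8a2, Col12a1 and Col16a1 in the 4 conditions, named by the transcript base at which the probe starts, with open points where it was not well above background and a dotted line at the lowest intensity that was. The probes of Col15a1 and Col8a2 do not move in parallel, and the second probes of Col9a1 and Col12a1 lie at background.

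Differences between conditions were taken on the log2 scale after division by the 75th percentile, as the mean over the probes of a gene above background in both groups. With 1 array per condition they have no replicate check, and a 2-fold difference is used as a description. The comparisons share arrays, so they are not independent of each other. Values of Col2a1, Col11a2, Col23a1, Col25a1 and Col28a1 are given for their size and were chosen after they were seen.

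At 5 mM glucose, most collagen chains differed little without and with pyruvate. The median difference, Pyr (−) minus Pyr (+), was -0.02 over 36 measured collagen genes and -0.02 over all measured genes. Past 2-fold was 1 of 36, Col15a1, beside 2.75% of all genes. Col15a1 was lower by 1.04 without pyruvate with the probe from base 2280 and at least 2.52-fold lower with the probe from base 4542. The largest difference upwards was 0.43 for Col8a2, which came from a single probe, at 0.90, against -0.04 for the other. The largest measured difference downwards after that of Col15a1 was -0.49, for the dim chain Col28a1. Col1a1, Col3a1, Col6a1 and Col6a2 were at 0.25, 0.22, 0.13 and 0.14, and Col4a5 and Col5a2 at -0.20 and -0.15. When arrays were scaled instead to the spike-in controls, RNAs added in known amounts, the median of all genes moved by -0.19 in this comparison, and the directions of Col6a1 and Col6a2 flipped with it.

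At 15 mM glucose, most chains had slightly lower values without pyruvate, with 27 of 35 measured differences below 0, beside 43.1% of all genes. The median difference was -0.10 over 35 measured collagen genes and 0.03 over all measured genes. Past 2-fold was 1 of 35, Col9a1, at -1.11, beside 4.43% of all genes. The next were Col6a3 at -0.61, Col5a2 at -0.50, Col8a2 at -0.48, Col12a1 at -0.32, Col8a1 at -0.25 and Col18a1 at -0.20. The 8 measured differences above 0 included those of the dim chains Col2a1 at 0.41, Col6a4 at 0.40, Col25a1 at 0.19 and Col28a1 at 0.09, and of Col3a1 at 0.07. Col15a1 was at least 1.63-fold higher without pyruvate with the probe from base 4542, and had no measured value with its other probes. The direction of Col9a1, Col6a3, Col5a2, Col12a1 and Col8a2 was the same under every processing alternative tried, whereas that of Col6a4 was not. With normexp background correction, Col9a1 was at -0.50, which ends its 2-fold call, and Col8a2 at -0.24.

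**Figure D3:**
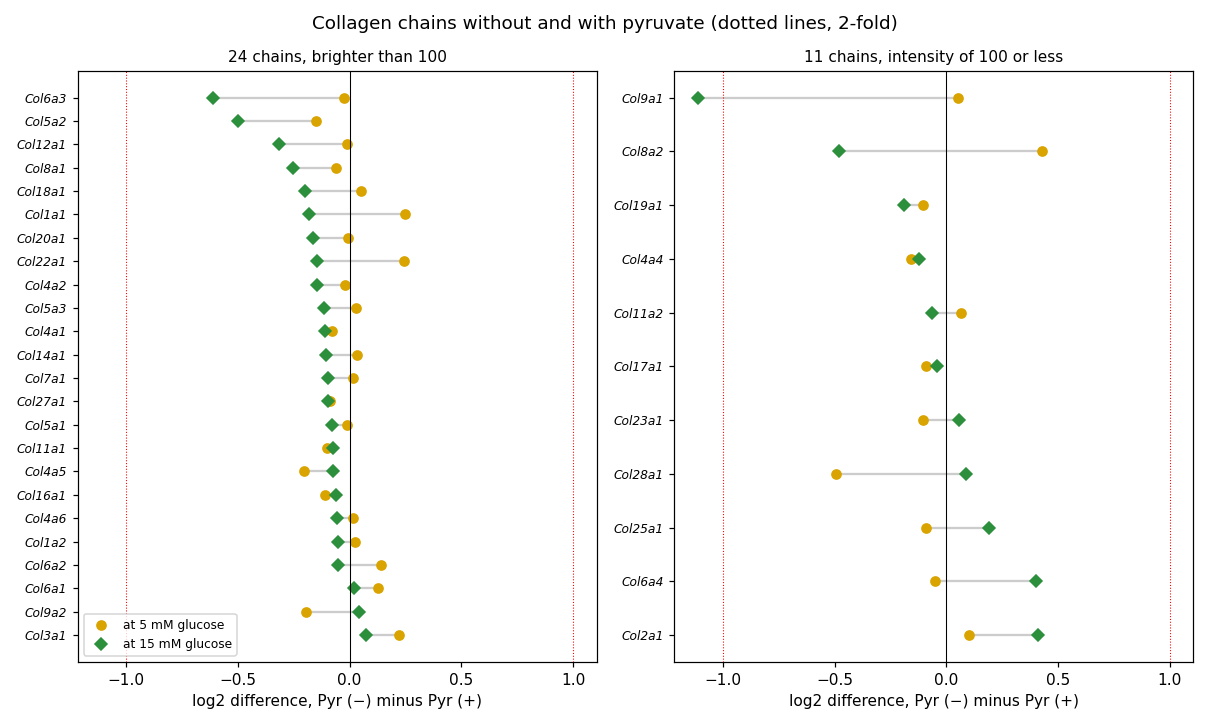
Log2 difference without minus with pyruvate for the 35 expressed collagen chains, at 5 mM glucose (circles) and 15 mM glucose (diamonds), divided by intensity. Dotted lines mark 2-fold, which among these chains Col9a1 alone passed, at 15 mM glucose.

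The brighter chains were examined apart, since 24 collagen genes had an expressed probe with a mean intensity above 100, a limit chosen after the values were seen. None of these 24 passed 2-fold in any comparison, beside 0.0254% of 15731 genes of this brightness for pyruvate at 5 mM glucose, 0.96% at 15 mM, 0.0318% for glucose with pyruvate and 1.07% without it. Their differences for pyruvate were below 0 in 13 of 24 at 5 mM glucose, beside 53.4% of all genes as bright, and in 21 of 24 at 15 mM, beside 42.9%. At 15 mM the exceptions were Col3a1, Col9a2 and Col6a1, and the median was -0.10, beside 0.03.

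The 2 glucose comparisons were read the same way, as 15 minus 5 mM. With pyruvate, the median was -0.03 over 35 collagen genes and -0.02 over all genes, and 13 of 24 bright chains were below 0, beside 49.8%. Past 2-fold was 1 gene, beside 2.61% of all genes. This was Col15a1, at least 1.93-fold and 2.17-fold lower at 15 mM with its detected probes. The call rests on the mean of these bounds, -1.03, and the smaller bound alone is under 2-fold. The largest measured differences were 0.61 for Col9a1, 0.43 for Col8a2, -0.36 for Col23a1, -0.35 for Col28a1, -0.31 for Col4a4 and 0.31 for Col6a3. The value of Col23a1 came from a single dim probe, from base 2342, at -0.73, against 0.003 for its other detected probe. With spike-in scaling the median of all genes moved by -0.35 here, and Col6a3 then turned to -0.04. Without pyruvate, the median was -0.11 over 36 collagen genes and 0.03 over all genes. Past 2-fold were 0 of 36, beside 4.56% of all genes. Below 0 were 23 of 24 bright chains, beside 41.2%, and the exception was Col1a2, at 0.01. The largest measured differences were -0.56 for Col9a1, -0.47 for Col8a2, 0.45 for Col6a4, -0.43 for Col11a2 and -0.40 for Col12a1. Col15a1 lay at 0.07 with the probe from base 2280 and was at least 1.89-fold higher at 15 mM with the probe from base 4542. Spike-in scaling moved the median of all genes by -0.20 in this comparison.

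Seen over the 4 groups, the [Glc 15 mM/Pyr (−)] group was the lowest for 16 of 24 bright chains, beside 29.8% of all genes as bright, and for 22 of 35 expressed chains, beside 30.4% of all expressed genes. It was the highest for 0 of 24 bright chains, beside 42.8%. The median range over the 4 groups was 0.23 for the 35 expressed collagen genes and 0.25 for all expressed genes. This count of lowest values is a single pattern read through 1 array, which both the pyruvate comparison at 15 mM and the glucose comparison without pyruvate share.

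The position of the probe in the transcript moved with the same pattern. Collagen messages are long, and for 21 of 24 bright chains the brightest probe started at base 4000 or later, against 2234 of 15731 genes as bright. Among all 2234 genes with such probes, the median difference for pyruvate at 15 mM was -0.13 and 1819 of them (81.4%) were below 0, while the 21 collagen genes had a median of -0.11 with 20 below 0. Among the 13497 genes with probes before base 4000 the median was 0.05, 36.6% were below 0, and the 3 collagen genes there, Col6a1, Col6a2 and Col9a2, had a median of 0.02. For glucose without pyruvate the medians were -0.15 for all genes (84.5% below 0) and -0.14 for collagen genes from base 4000 on, and 0.07 (34% below 0) and -0.11 before it. All 3 collagen genes before base 4000 were below 0 there. For glucose with pyruvate the medians from base 4000 on were -0.04 for all genes (63.3% below 0) and -0.02 for collagen genes (52.4%). At 5 mM glucose the pyruvate medians from base 4000 on were -0.02 for all genes, 56.6% of them below 0, and -0.01 for collagen genes. The collagen genes with probes from base 4000 on thus lay close to other genes with such probes. For glucose without pyruvate the median of the 3 before it differed from that of other genes with such probes. Their values, -0.13 to -0.05, still lay within the spread of those genes. The split was made after the values were seen and does not separate probe position from transcript length. The part of either in the collagen values was not tested.

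**Figure D4:**
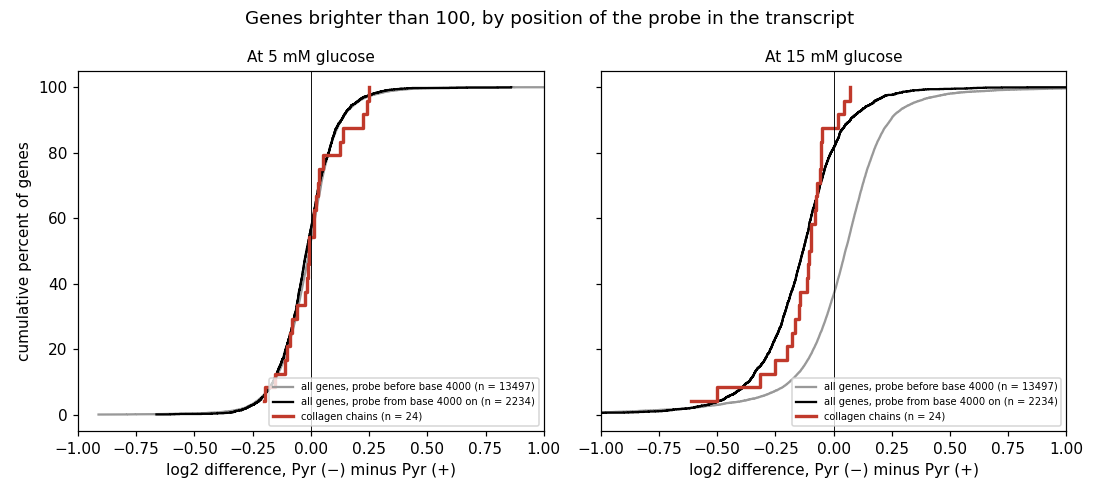
Cumulative percent of genes brighter than 100 against the log2 difference without minus with pyruvate, at 5 mM and 15 mM glucose, for collagen chains (n = 24) and for all genes with the probe before (n = 13497) or from base 4000 of the transcript on (n = 2234). At 15 mM glucose the collagen curve runs with that of the genes with probes from base 4000 on, left of the other genes.

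A test was possible only for effects assumed to add up. An additive fit of pyruvate and glucose in limma, which leaves 1 residual degree of freedom, was adjusted over 31274 probes by Benjamini-Hochberg. It called 0 of 48 collagen probes for either factor, beside 0 of all probes. The smallest adjusted p of a collagen probe was 0.985 for pyruvate and 0.772 for glucose. At an unadjusted p under 0.05 there were 0 collagen probes for pyruvate, beside 3.44% of all probes, and 2 for glucose, beside 4.78%. These 2 of 48 are not above the share of all probes. They were a probe of Col4a4, at -0.39 with an SE of 0.09, and the probe of Col11a2, at -0.36 with an SE of 0.10, both lower at 15 mM. The other detected probe of Col4a4 lay at -0.20 with an SE of 0.10. In simulated data, noise was first set to the residuals of this fit, which also take up any dependence of one effect on the other. The same fit then called 0 of 200 probes changed by 4-fold. With a noise of 0.05 log2 it called 200 of 200, along with 6 unchanged probes. The noise between cultures is not known without replicates, so the count of 0 says nothing about the absence of change.

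The genes that modify, fold, export, process, degrade and bind collagen were described from 5 lists, with 55 genes on the array. Of these, 47 were expressed, beside 69.8% of all names on the array. The comparisons are given as pyruvate at 5 and 15 mM glucose, then glucose with and without pyruvate. Their medians were -0.01, -0.03, 0.03 and -0.01, beside -0.02, 0.03, -0.02 and 0.03 over all genes. Below 0 were 27 of 48, 31 of 47, 21 of 47 and 27 of 48 measured genes, beside 56.1%, 43.1%, 55.6% and 43.8% of all genes. All 14 genes for prolyl and lysyl modification, which gives the helix its stability and its cross-links, were expressed. The prolyl hydroxylase chains P4ha1 and P4ha2 lay at 0.04 and 0.05 for pyruvate at 5 mM glucose and at 0.17 and 0.07 at 15 mM, and Plod2, a lysyl hydroxylase, at 0.22 and 0.05. The 0.17 of P4ha1 is a mean of 2 probes. The brighter gave 923 with and 932 without pyruvate at 15 mM, so the dimmer probe carried this value. The single gene of the lists with a measured difference past 2-fold was Colgalt2, which adds galactose to collagen hydroxylysine. Its only probe was dim and gave 26.2, 59.1, 76.2 and 26.1, a difference for pyruvate of 1.21 at 5 mM and -1.58 at 15 mM. The difference for glucose was 1.70 with pyruvate and -1.09 without. The 2 groups in the middle were thus the brighter ones.

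The collagen chaperone Serpinh1 gave 23207, 25971, 22693 and 25399 and was 0.20 and 0.13 higher without pyruvate at 5 and 15 mM glucose, the largest of the chaperone and export list at 5 mM. Elsewhere in that list the largest was Fkbp14, a prolyl isomerase, at 0.23 for pyruvate at 15 mM and 0.20 for glucose without pyruvate, and Fkbp10 at 0.18 for glucose with pyruvate. Of 12 genes for procollagen processing and cross-linking 10 were expressed. Lox, the lysyl oxidase that starts cross-links, was at background with both of its probes, while its relatives Loxl1 to Loxl4 were expressed. The largest differences of this list were -0.25 for Loxl4 and -0.22 for Loxl3 for pyruvate at 5 and 15 mM, -0.27 for Loxl2 for glucose with pyruvate and -0.17 for Adamts14, a procollagen peptidase, without it.

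Of 10 genes for degradation and its inhibitors, 6 were expressed. Mrc2, the receptor that takes up cleaved collagen, gave 51.6, 33.5, 4.39 and 29.5 with 1 probe and was at background with the other 2. That probe was not well above background in the [Glc 15 mM/Pyr (+)] group only, which makes Mrc2 at least 2.75-fold higher without pyruvate at 15 mM and at least 4.40-fold lower at 15 than at 5 mM glucose with pyruvate. For pyruvate at 5 mM glucose Mrc2 lay at -0.59. Ctsk, the collagen-cleaving cathepsin K, gave 175, 181, 171 and 231 and was highest in the [Glc 15 mM/Pyr (−)] group, at 0.41 for pyruvate and 0.45 for glucose. All 11 receptors were expressed. Itga1, an integrin chain for type IV collagen, had the largest differences, -0.45 for pyruvate at 15 mM and -0.40 for glucose without pyruvate. Both are means of 2 probes. The brighter probe gave 201, 212, 180 and 170 and differed less, so the larger part came from the dimmer one. Itga11 lay at -0.25 for pyruvate at 5 mM, and Ddr2, a receptor kinase for fibrillar collagen, at -0.28 for glucose with pyruvate.

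**Figure D5:**
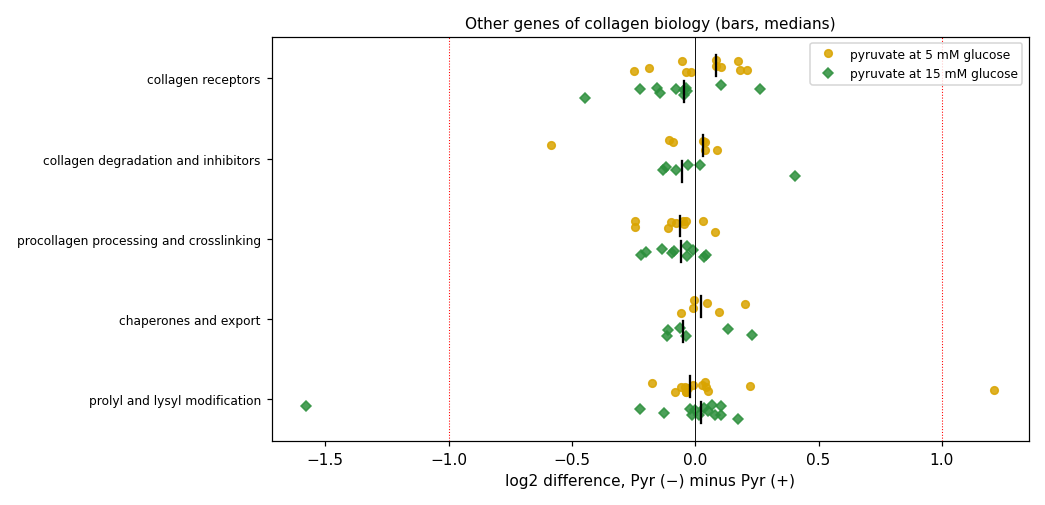
Log2 difference without minus with pyruvate for the measured genes of 5 lists of collagen biology, at 5 mM (circles) and 15 mM glucose (diamonds), with bars at the medians and dotted lines at 2-fold. All list medians lie near 0, and the points past 2-fold, at 1.21 and -1.58, are both Colgalt2.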

How the data were processed

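Expression was measured in 4 cultures of IMS32 cells, 1 one-colour array per condition on 1 slide. The authors deposited scanner output of Feature Extraction 11.5.1.1 with a background-corrected intensity per spot, and a table with the ratio of this intensity to a percentile of the array. Here, control and outlier spots were left out, spots of a probe were averaged, and log2 intensity was expressed against the 75th percentile of its array. This log2 value is not a deposited one. A deposited flag, well above background on more than 0.5 of a probe's spots, set detection. Where a probe was above background in 1 of 2 groups, the difference is a bound, the brighter signal against the higher of the lowest signal above background on the other array and the probe's own. The median SD between spots of a probe was 0.07 to 0.08 log2, and 1 array per condition limits the precision.

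Members and lists were chosen with earlier results of these data known. All chains are accounted for. Values are given for expressed chains of types I, III, IV, V, VI, VIII, XII, XV and XVIII, chains past 2-fold and the largest difference of each comparison. Of the lists, genes past 2-fold, the largest of each list and P4ha1, P4ha2, Plod2, Serpinh1 and Lox are named. The fit used limma 3.58.1 in R 4.3.3, and other steps Python 3.11.15, numpy 2.4.6 and pandas 2.3.3, tested on simulated data. Alternatives were other scalings, normexp background correction, other filters, the brightest probe, the deposited ratio and a 1.5-fold threshold. No protein sequences were used here.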

Additional observations from a re-analysis of the deposited data

Results flagged for a closer look

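Colgalt2, the galactosyltransferase described above, moved in opposite directions when pyruvate was removed: 1.21 on the log2 scale at 5 mM glucose and -1.58 at 15 mM. Each value rests on 1 array per group and on 1 dim probe, with intensities of 26.1 to 76.2, and the difference between them was not tested.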

How the results depend on the processing

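No paired analysis was possible because each condition has 1 array, and for the same reason no replicate could be left out. Of 794 recomputed values, 653 moved by less than 0.08 log2, the spread between spots of a probe, or kept their count within 1.5 times, and 141 moved further. Of the values past 2-fold, 0 changed sign. Spike-in scaling moved the collagen median to -0.20 for pyruvate at 5 mM, and to -0.38 and -0.31 for glucose in the presence and absence of pyruvate, and the bright chains below 0 to 21 for pyruvate at 5 mM and 24 for glucose with pyruvate. With normexp the median for glucose with pyruvate was 0.053. The count past 2-fold for pyruvate at 5 mM was 0 with quantile normalization, with normexp and with probes above background on all 4 arrays, beside 688 and 33 of 24315 and 175 of 21716 genes. At 15 mM it was 0 with normexp, beside 115 of 23419 genes, and 2 at 1.5-fold, beside 2376. For glucose with pyruvate it was 0 with quantile normalization, normexp, the filter on all 4 arrays and no filter, beside 616 and 36 of 24187, 171 of 21716 and 1286 of 31089 genes, and 2 at 1.5-fold, beside 1348, and without pyruvate it was 2 with no filter, beside 2196 of 31091. These causes were not tested. The collagen median minus that of all genes stayed between -0.14 and -0.07 for pyruvate at 15 mM and between -0.17 and -0.11 for glucose without pyruvate under the alternatives run, between -0.02 and 0.01 for pyruvate at 5 mM and between -0.03 and -0.01 for glucose with pyruvate. Of bright chains, 20 to 22 were lower without pyruvate at 15 mM and 15 to 22 were lowest in the [Glc 15 mM/Pyr (−)] group. These bright counts and the split by probe position were added after seeing the data. The additive fit called 0 collagen probes under all alternatives run. The chains past 2-fold, Col9a1 and Col15a1, were dim, with intensities under 100, where signal over background limits what can be measured.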
